A study of Mus musculus with 4 samples.

Results

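The 8 genes described here are the nonclassical MHC class I genes H2-Q4, H2-Q6, H2-Q7, H2-T10, H2-T22, H2-T23, H2-T24 and H2-M3, chosen by name among the 48897 genes of the deposited table. All 8 were listed, on chromosome 17, and 6 of them passed the filter on low counts, as did 17766 genes in all. RNA-Seq was performed on retinas of C57BL/6 mice (C57BL/6J in the study's methods), with the genotype given as "wide type", in which the microRNA miR-124-3p had been targeted with an antagomir, that is, a modified oligonucleotide complementary to the mature microRNA. Each mouse received an intravitreal injection on postnatal day 3, with 1 μl holding 0.6 nmol of antagomir in the left eye (anti-miR-124 group) and the same amount of a scrambled control sequence in the right eye (negative control, NC group), and retinas were taken on postnatal day 9. There were 2 libraries per group, each from mixed retinas, and all mice carried both injections, so that the oligonucleotide and the side of the eye cannot be told apart. Left-eye and right-eye libraries that share a number in the table are set side by side as a pair, and since the labels do not tell which number is replicate 1, the libraries are named NC-A and anti-A in the first pair (pair A) and NC-B and anti-B in the other (pair B). The libraries held between 16317239 and 18726963 counts. In marker genes, single libraries stood apart. NC-A held lens transcripts, with 65400 of a summed TPM over 21 lens genes against 132 to 186 in the others. Anti-B had the highest level of microglia and gliosis markers, and anti-A the highest summed TPM of pigment epithelium genes, as given further on.

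Classical class I molecules, H2-K and H2-D in C57BL/6 mice, stand on nearly all nucleated cells and show peptides from inside the cell to CD8 T cells. The nonclassical molecules are built on the same plan, with a heavy chain that pairs with beta-2 microglobulin, but vary little between individuals and serve narrower tasks. Qa-1, encoded by H2-T23, carries leader peptides of other class I chains and is read by CD94/NKG2 receptors of natural killer cells and some T cells. H2-T22 and H2-T10 are bound by receptors of gamma delta T cells, and H2-M3 presents peptides that begin with N-formyl methionine, a mark of bacterial and mitochondrial proteins. H2-Q7 encodes Qa-2, which is tied to the membrane by a lipid anchor. Class I genes are induced by interferons through transcription factors such as IRF9 and IRF1 and through the transactivator NLRC5. Neural tissue, the retina included, is known for low class I levels at rest.

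The listed positions followed the GRCm38 assembly. The H2-Q genes lay within 0.0642 Mb, in the order H2-Q4 (chr17:35379617-35384674), H2-Q6 (chr17:35424877-35428361) and H2-Q7 (chr17:35439147-35443773), all on the plus strand. The H2-T genes lay within 0.117 Mb on the minus strand, in the order H2-T24 (chr17:36003992-36020845), H2-T23 (chr17:36029977-36032701), H2-T22 (chr17:36038407-36042743) and H2-T10 (chr17:36115871-36121444). H2-M3 (chr17:37270234-37274485) was on the plus strand and closed a span of 1.89 Mb for the 8 genes. The table listed all of them as protein coding, whereas RefSeq classes H2-T10 as a transcribed pseudogene.

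The promoters are described by their letters only, and a relation of these letters to the levels was not tested. RefSeq promoters on GRCm38.p6, of 300 bases from 250 before to 50 after the annotated start, were at hand for H2-Q4, H2-Q6, H2-Q7, H2-T22, H2-T23 and H2-M3. The letters of 4 motifs, chosen after these promoters had been read, were searched on both strands. Because of that choice, the shares below describe the members and are no test against all promoters. The first was AANNGAAA, the core bound by interferon regulatory factors (IRF core). It was found in 6 of 6 member promoters and in 23.9% of all 32851 promoters of the same length. The windows of 30 bases around it are given 5′ to 3′ on the strand of the gene, with the match in capitals. In all of these windows the match is the reverse complement, so that it begins with TTTC.
H2-Q4, chr17:35379453-35379482, plus strand: catctccccagTTTCACTTctgctcctaac
H2-Q6, chr17:35424687-35424716, plus strand: catctccccagTTTCACTTctgctcctaac
H2-Q7, chr17:35439031-35439060, plus strand: catctccccagTTTCACTTctgctcctaac
H2-T22, chr17:36042915-36042944, minus strand: aattggcttagTTTCACTTtcgaatcccca
H2-T23, chr17:36032807-36032836, minus strand: gatcctactgcTTTCTCTTtcataaagaca
H2-T23, chr17:36032764-36032793, minus strand: ctcaattctcaTTTCTGTTggacgcctagt
H2-M3, chr17:37270122-37270151, plus strand: ttcctctgaggTTTCACTTctctgtaactc

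The window letters of the 3 H2-Q genes were identical. H2-T22 and H2-M3 held the same capitals in different surroundings, and H2-T23 held 2 matches with other letters at the free positions of the motif. The second motif was GGGATTNCC, which resembles sites of NF-kB (kB-like). It was found in 3 members and in 0.938% of all promoters.
H2-Q4, chr17:35379434-35379463, plus strand: atcaggggtgGGGATTTCCcatctccccag
H2-Q6, chr17:35424668-35424697, plus strand: cccatggctgGGGATTCCCcatctccccag
H2-Q7, chr17:35439013-35439042, plus strand: cccatggctgGGGATTCCCatctccccagt

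The third motif was TGATGAC, which resembles the X2 element of the class I and class II SXY module (X2-like). It was found in 5 members, all but H2-T23, and in 3.23% of all promoters.
H2-Q4, chr17:35379499-35379528, plus strand: tgcccggacacTGATGACttactggcagtt
H2-Q6, chr17:35424733-35424762, plus strand: tgccaggacacTGATGACctgtaacagttc
H2-Q7, chr17:35439077-35439106, plus strand: tgccaggacacTGATGACgtgtaacagttc
H2-T22, chr17:36042867-36042896, minus strand: tgcctagatatTGATGACttggcactagtt
H2-M3, chr17:37270174-37270203, plus strand: tgcccggatacTGATGACgcttctccaatt

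The fourth, CCAAT, a box bound by nuclear factor Y, was found in 6 members and in 37.4% of all promoters. The distance from the first base of the IRF core to that of the X2-like match was 46 bases in H2-Q4, H2-Q6 and H2-Q7, as it was in the classical gene H2-D1, and it was 48 bases in H2-T22 and 52 bases in H2-M3. The IRF core therefore lay upstream of the X2-like match in each of these genes, while the place of both relative to the annotated start differed. H2-K1, the other classical gene, held an IRF core and a kB-like match but no X2-like match. B2m held an IRF core but no kB-like or X2-like match. A match is a description of letters, and binding of a factor was not measured.

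**Figure D1:**
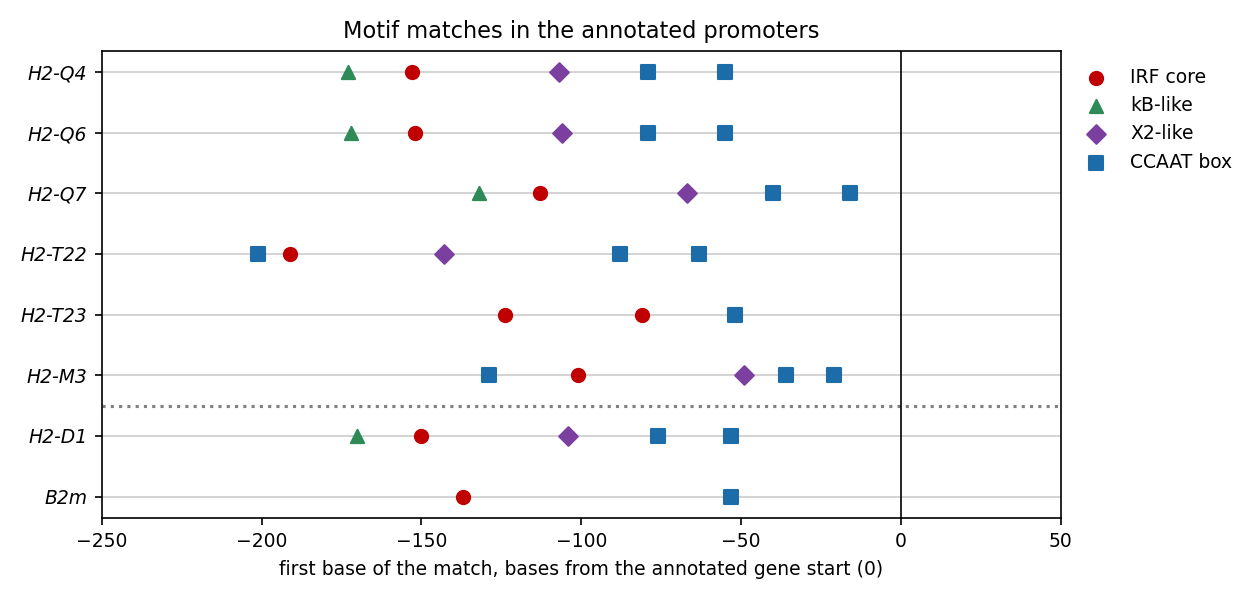
Positions of the 4 motifs in the annotated promoters of 6 nonclassical genes and, under the dotted line, of H2-D1 and B2m. The x axis gives the first base of each match in bases from the annotated gene start at 0, and each symbol is 1 match on either strand. The IRF core lies upstream of the X2-like match in each of the 6 genes drawn with both.

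The members differed widely in level. Levels are given in TPM, that is, counts divided by gene length and scaled to the same sum in each library. Lens transcripts take part of that sum in NC-A, which lowers the TPM of all other genes in that library. In the NC group, H2-T24, a little studied gene of the T region, was highest with 18.0 ± 1.64 TPM (SD, n = 2). It was followed by H2-Q7 with 6.08 ± 0.254, H2-T23 with 5.31 ± 1.39 and H2-T22 with 5.01 ± 0.429 TPM, and neighbours in this run of 3 overlapped between libraries. H2-Q4 (3.63 ± 0.0865 TPM) lay below them without overlap. H2-Q6 (0.947 ± 0.253 TPM) and H2-M3 (0.591 ± 0.287 TPM) overlapped each other, and H2-T10 was lowest at 0.0651 ± 0.092 TPM. H2-T24 alone held 42.8% of the summed TPM of the 8 genes in NC-A and 48% in NC-B.

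In the anti-miR-124 group, the order of the upper genes was no longer set apart by the libraries. H2-T24 had 18.4 ± 0.479 TPM (SD, n = 2), H2-T23 15.4 ± 7.64, H2-T22 8.88 ± 2.63, H2-Q4 7.05 ± 2.11 and H2-Q7 6.33 ± 1.06 TPM, and each overlapped the next. H2-Q6 (1.72 ± 1.16 TPM) and H2-M3 (1.48 ± 0.00199 TPM) again overlapped each other, and H2-T10 was lowest at 0.124 ± 0.0821 TPM. H2-T23 was the highest of the 8 genes in anti-B and the second highest in anti-A. Its share of the summed TPM was 16% in NC-A, 20% in anti-A, 10.9% in NC-B and 30.4% in anti-B. The summed TPM of the 8 genes was 39.4 in NC-A, 50.3 in anti-A, 39.9 in NC-B and 68.4 in anti-B. Both anti-miR-124 libraries were above both NC libraries in this sum. On the scale of TMM-normalized CPM, counts scaled by library but not by length, the sum was 1.12-fold higher in pair A and 1.49-fold higher in pair B. Without H2-T24 these ratios were 1.29 and 2.31, and without H2-T23 they were 1.08 and 1.26.

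**Figure D2:**
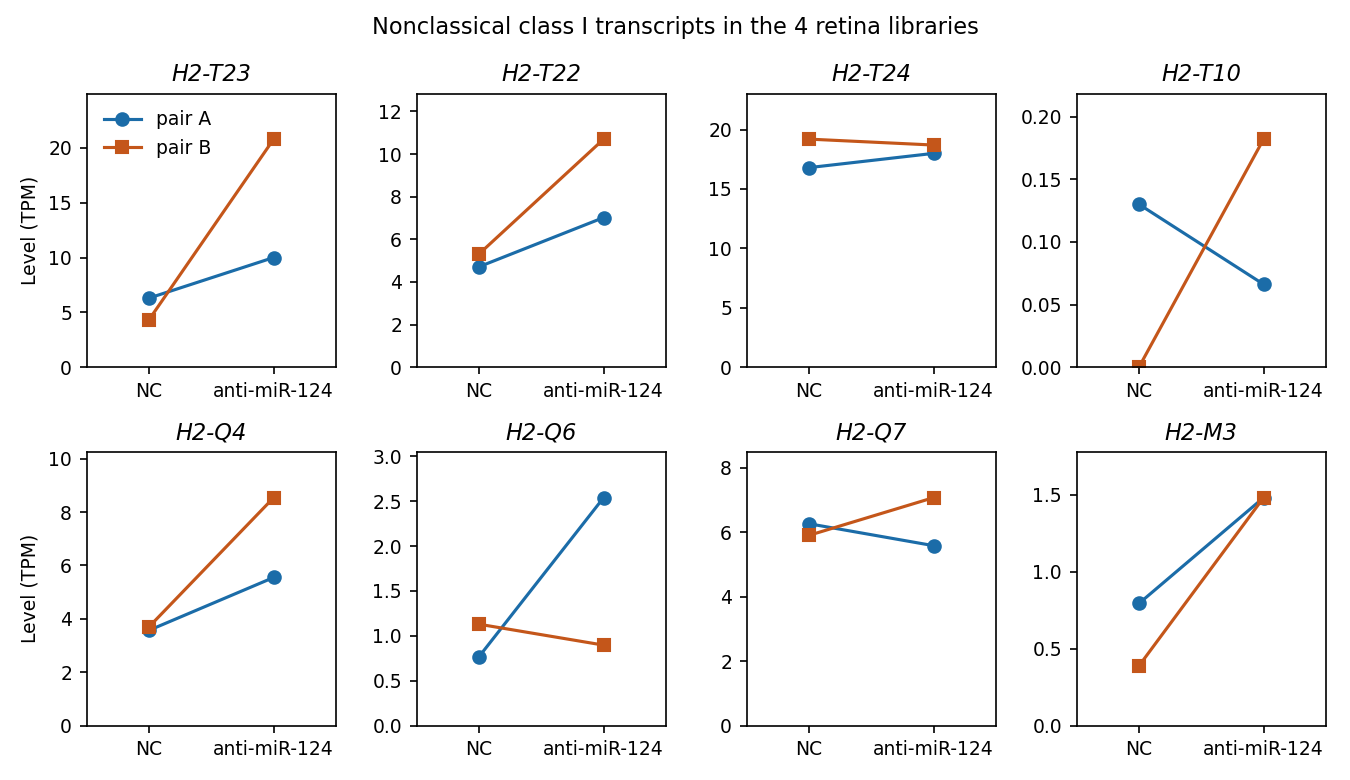
Level in TPM (y axis, from 0, with its own scale for each gene) of the 8 nonclassical class I genes in the 4 retina libraries, with a line joining NC-A to anti-A (blue circles) and NC-B to anti-B (orange squares). H2-T23, H2-T22, H2-Q4 and H2-M3 are higher in both anti-miR-124 libraries than in both NC libraries, and H2-T24 stays between 16.8 and 19.2 TPM.

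The comparison of the groups asks which of these genes differed after inhibition of miR-124-3p. Transcripts of H2-T23, H2-T22, H2-Q4 and H2-M3 were higher in both anti-miR-124 libraries than in both NC libraries, whereas H2-Q7, H2-T24, H2-Q6 and H2-T10 overlapped between the groups. This count is a description of the members, since H2-M3 passed the filter only through the group where it was high and H2-Q6 and H2-T10 were not tested. Among the 17766 genes tested, 16.5% lay above both NC libraries. No member lay below both NC libraries, and 16.8% of the genes tested did. By the quasi-likelihood test of edgeR, with p-values adjusted by Benjamini-Hochberg over all genes, 0 of the 6 members tested and 0% of all genes had an adjusted p under 0.05. An unadjusted p under 0.05 with a higher level in the anti-miR-124 group was found for 3 members (H2-T23, H2-Q4 and H2-T22) and for 2.23% of all genes, and with a lower level for 0 members and 1.68% of all genes. On TMM-normalized CPM, 4 members were higher in both pairs, as were 22.8% of all genes. On that scale 1 member, H2-T24, was slightly lower in both pairs, as were 24% of all genes. Its log2 ratios were -0.0106 in pair A and -0.0325 in pair B. In TPM, H2-T24 was higher in pair A, with 16.8 in NC-A and 18 in anti-A. DESeq2, used as an alternative, likewise gave no member an adjusted p under 0.05, with 1 member (H2-T23) under 0.05 unadjusted, while it called 0.142% of its genes higher. Without NC-A, which held the lens transcripts, the log2 fold changes were 1.84 for H2-T23, 0.94 for H2-Q4, 0.75 for H2-T22, 1.90 for H2-M3, 0.12 for H2-Q7 and -0.05 for H2-T24. Without anti-B they were 0.87, 0.57, 0.45, 1.26, -0.16 and -0.03 in the same order.

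H2-T23, the Qa-1 heavy chain, showed the largest log2 fold change of the members tested when all 4 libraries were used. It had 44 counts in NC-A, 69 in anti-A, 31 in NC-B and 156 in anti-B. In TPM these were 6.3 and 10 in pair A and 4.33 and 20.8 in pair B. The groups did not overlap, and anti-B stood well above anti-A. The log2 fold change was 1.48 (standard error, SE, 0.418), a 2.78-fold higher level, with an adjusted p of 0.989 from edgeR's quasi-likelihood test (unadjusted 0.0108) and of 0.555 from DESeq2. It rested unevenly on the libraries, being 0.87 without anti-B and 1.90 without anti-A. Without the filter on low counts the adjusted p was 7.6e-05 in edgeR, at the same log2 fold change of 1.48. In that fit 379 of 31982 genes were called, against 0 of 17766 with the filter, so the adjusted p depended on the filter.

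H2-T22 encodes a class I molecule that binds no peptide and is seen by gamma delta T cell receptors. It had 45 counts in NC-A, 66 in anti-A, 52 in NC-B and 110 in anti-B. This corresponds to 4.71, 7.02, 5.31 and 10.7 TPM in the same order, and the groups did not overlap. The log2 fold change was 0.77 (SE 0.286, edgeR adjusted p = 0.989, unadjusted 0.0326), and it was 0.45 without anti-B.

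H2-Q4 encodes a class I heavy chain of the Q region. It had 34 counts in NC-A, 52 in anti-A, 36 in NC-B and 87 in anti-B. The levels were 3.57 and 5.55 TPM in pair A and 3.7 and 8.54 TPM in pair B, so that the NC libraries lay close together and below both others. The log2 fold change was 0.90 (SE 0.31, edgeR adjusted p = 0.989, unadjusted 0.0245), and it was 0.57 without anti-B. An antisense transcript listed on the other strand at the H2-Q4 locus had 4 counts in NC-A, 10 in anti-A, 3 in NC-B and 9 in anti-B, and whether the counting used the strand is not given in the sources used here.

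H2-M3, which presents N-formylated peptides, was counted rarely. It had 6 counts in NC-A, 11 in anti-A, 3 in NC-B and 12 in anti-B, or 0.793, 1.48, 0.388 and 1.48 TPM. It passed the filter only through the anti-miR-124 group, where it was higher. The log2 fold change was 1.25 (SE 0.568, edgeR adjusted p = 0.989, unadjusted 0.0662). It was 0.77 without NC-B and 1.90 without NC-A, and the mean log2 TPM ratio was 0.65 with 1 TPM added to each value. With 3 counts in NC-B, the ratio in that pair was 3.83 with a 95% counting interval from 1.03 to 21.2.

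H2-Q7, which encodes Qa-2, overlapped between the groups. It had 57 counts in NC-A, 50 in anti-A, 55 in NC-B and 69 in anti-B. Anti-A lay below NC-A and anti-B above NC-B, with a log2 fold change of 0.004 (SE 0.264, edgeR adjusted p = 1). Its neighbour H2-Q6 had 4 counts in NC-A, 13 in anti-A, 6 in NC-B and 5 in anti-B, so that the pairs went opposite ways and the gene did not pass the filter. The listed length of H2-Q6, 981 bases, is that of a short transcript, and RefSeq places the gene at chr17:35424850-35430055, so its TPM depends on the transcript chosen.

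H2-T24 was the most strongly expressed member and the most even. It had 249 counts in NC-A, 262 in anti-A, 290 in NC-B and 296 in anti-B. The levels of 16.8, 18.0, 19.2 and 18.7 TPM overlapped between the groups. The log2 fold change was -0.02 (SE 0.109, edgeR adjusted p = 0.995), and the mean over the pairs of log2 TPM ratios, with 0.1 TPM added, was 0.03. At its counts, the 95% counting interval of the ratio ran from 0.831 to 1.19 in pair A and from 0.829 to 1.15 in pair B. H2-T10, which shares much of its sequence with H2-T22, had 2 counts in NC-A, 1 in anti-A, 0 in NC-B and 3 in anti-B. All 4 of its values were at or under the floor of 3 counts, and no difference was detectable at this depth.

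The size of the differences was not the same in the pairs. H2-T23 was 1.48-fold higher in pair A (95% counting interval 0.999 to 2.21) and 4.82-fold in pair B (3.26 to 7.34). For H2-Q4 the ratios were 1.44 (0.919 to 2.29) and 2.31 (1.55 to 3.52). For H2-T22 they were 1.38 (0.933 to 2.07) and 2.03 (1.44 to 2.88). For H2-M3 the ratio in pair A was 1.73 (0.586 to 5.7). In pair A the interval of none of the 8 members left out a ratio of 1, while in pair B those of H2-T23, H2-T22, H2-Q4 and H2-M3 did. The ratio was the larger in pair B for 4 of these 4 genes. These intervals take in counting error only, reads amplified by PCR are not independent molecules, and the difference between the pairs was not tested. The share of all genes with an interval that left out 1 was not computed, so the count only describes the members.

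**Figure D3:**
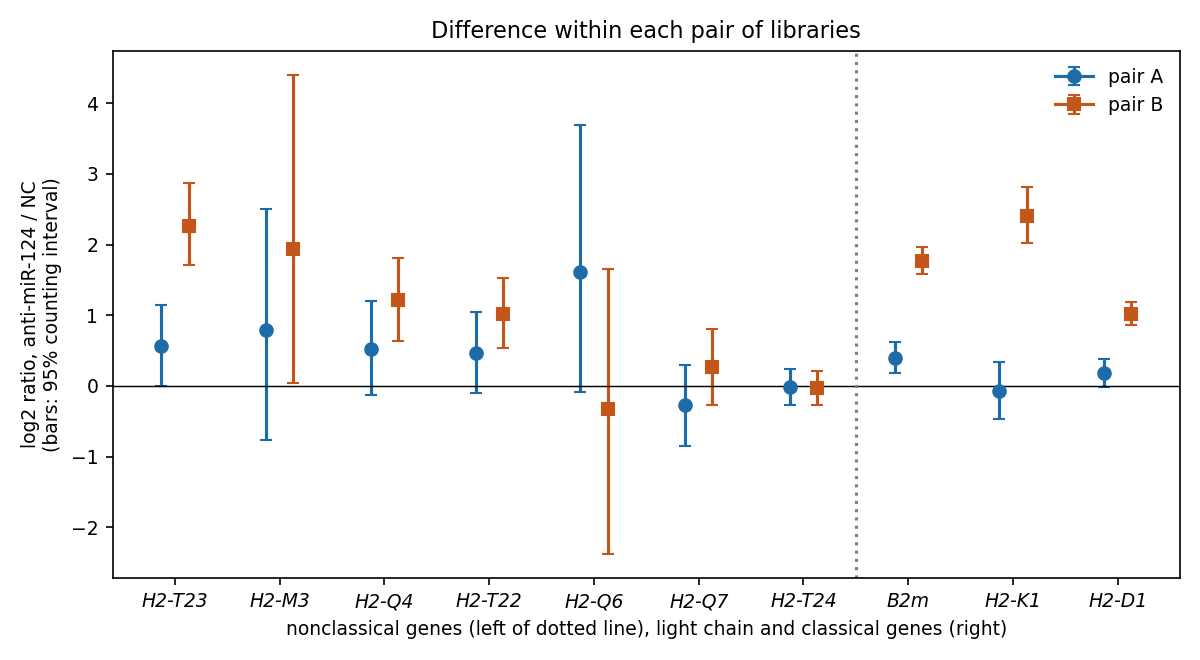
log2 ratio of the anti-miR-124 to the NC library (y axis, TMM-normalized counts) in pair A (blue circles) and pair B (orange squares) for 7 nonclassical genes and, right of the dotted line, for B2m, H2-K1 and H2-D1, with bars for the 95% counting interval. H2-T10 is left out because it has 0 counts in a library. For H2-T23, H2-M3, H2-Q4 and H2-T22 both points lie above 0 and the point of pair B is the higher, and for H2-T24 both points lie at 0 within narrow bars.

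Parts of the members' sequences occur in other genes, which bears on how reads could be divided between them. Of the stretches of 50 bases of the longest coding transcript (GENCODE M21), 44.7% of those of H2-T22 and 42.9% of those of H2-T10 were also found in another gene, mostly in each other. For H2-Q7 the share was 34.9% and for H2-Q6 32%, again with each other as the main partner. It was 28.8% for H2-T23, 24.3% for H2-Q4, 3.23% for H2-T24 and 0.576% for H2-M3. With stretches of 100 bases, the highest share was 16.4%, for H2-Q7. Counts of H2-T22 against H2-T10 and of H2-Q7 against H2-Q6 are therefore uncertain. When the counts of each of these pairs of relatives were summed, the log2 fold change was 0.78 for H2-T22 with H2-T10 and 0.09 for H2-Q7 with H2-Q6. The classical gene H2-D1 shared 7.1% of the 50-base stretches of H2-T23, 8.34% of those of H2-Q7 and 3.84% of those of H2-Q4. It had more counts than these members in every library, and its part in their counts was not tested. H2-T23 and H2-T24 also overlap a long non-coding RNA of the other strand, A930015D03Rik, which had 69 counts in NC-A, 75 in anti-A, 81 in NC-B and 91 in anti-B.

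Other class I loci of the H2 complex were mostly silent. Of 23 such loci in the table, 13 had no count in any library and 2 passed the filter. These were H2-M5 with 41 counts in NC-A, 27 in anti-A, 48 in NC-B and 37 in anti-B, a log2 fold change of -0.55 (SE 0.291, edgeR adjusted p = 0.989), and H2-K2 with a log2 fold change of -0.41 (SE 0.375, edgeR adjusted p = 0.989). H2-T3, the thymus leukemia antigen, was among the loci at 0, and H2-Q5 had 0 counts in NC-A, 1 in anti-A, 1 in NC-B and 6 in anti-B. H2-Q8 and H2-Q9 were not listed under these names, and their part in the counts of H2-Q7 and H2-Q6 was not tested. Among class I-like genes outside the complex, 4 of 14 passed the filter. Of these, 0 were above both NC libraries, beside 16.5% of all genes tested. Cd1d1, which presents lipids to natural killer T cells, had a log2 fold change of -0.26 (SE 0.163), Mr1, which presents vitamin B metabolites, one of 0.13 (SE 0.373), Hfe, which takes part in iron regulation, one of 0.10 (SE 0.294), and Fcgrt, the neonatal Fc receptor, one of 0.24 (SE 0.517), all with an edgeR adjusted p of 0.989.

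The chains that work with or beside the members differed mostly in pair B. B2m and H2-D1, but not H2-K1, were above both NC libraries, as were 16.5% of all genes tested. B2m, the light chain that most class I heavy chains need, had 288 counts in NC-A, 403 in anti-A, 283 in NC-B and 1009 in anti-B. Its log2 fold change was 1.21 (SE 0.351, edgeR adjusted p = 0.989, unadjusted 0.0122). H2-D1 had 373 counts in NC-A, 450 in anti-A, 440 in NC-B and 934 in anti-B, with a log2 fold change of 0.68 (SE 0.268, edgeR adjusted p = 0.989). H2-K1 had 105 counts in NC-A, 106 in anti-A, 65 in NC-B and 361 in anti-B, with a log2 fold change of 1.34 (SE 0.536, edgeR adjusted p = 0.989). In pair A the log2 ratios were 0.40 for B2m, 0.19 for H2-D1 and -0.07 for H2-K1, and those of the 6 members tested lay between -0.27 (H2-Q7) and 0.79 (H2-M3). In pair B they were 1.77, 1.02 and 2.41 for the 3 chains and between -0.03 (H2-T24) and 2.27 (H2-T23) for the members.

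Among 12 tested genes of peptide supply and loading, 6 were above both NC libraries and 0 below both. The shares over all genes tested were 16.5% and 16.8%. With a higher level in the anti-miR-124 group, 3 had an unadjusted p under 0.05 in edgeR, as had 2.23% of all genes. The median log2 fold change was 0.25 beside 0.00 over all genes tested. Psmb8, a subunit of the immunoproteasome, had 13 counts in NC-A, 30 in anti-A, 18 in NC-B and 94 in anti-B (log2 fold change 1.90, SE 0.548, edgeR adjusted p = 0.989). Tap1, a chain of the peptide transporter, had 25 counts in NC-A, 54 in anti-A, 46 in NC-B and 145 in anti-B (log2 fold change 1.40, SE 0.477, edgeR adjusted p = 0.989). Both anti-miR-124 libraries lay above both NC libraries for these 2 genes. Tapbp, or tapasin, which holds class I chains at the transporter, had a log2 fold change of 0.43 (SE 0.14) and Erap1, which trims peptides, one of 0.28 (SE 0.143). Psmb9, which did not pass the filter, had 5 counts in NC-A, 7 in anti-A, 6 in NC-B and 20 in anti-B. The chaperones Calr and Canx, which serve glycoproteins in general, had log2 fold changes of -0.01 (SE 0.067) and -0.002 (SE 0.0649).

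Among 15 regulators that act at class I promoters, 4 were above and 3 below both NC libraries, and the median log2 fold change was 0.05. Of all genes tested, 16.5% were above and 16.8% below both NC libraries. Irf9, a DNA-binding factor of the interferon response, had 137 counts in NC-A, 287 in anti-A, 131 in NC-B and 501 in anti-B, a log2 fold change of 1.47 (SE 0.234) with an adjusted p of 0.671 in edgeR and of 4.2e-05 in DESeq2. The anti-miR-124 library was the higher in each pair. Nlrc5, the class I transactivator, was lower in pair A and higher in pair B and had 35 counts in NC-A, 16 in anti-A, 12 in NC-B and 64 in anti-B (log2 fold change 0.64, SE 0.725, edgeR adjusted p = 0.989). Stat2, which works with Irf9, had a log2 fold change of 0.33 (SE 0.115, edgeR adjusted p = 0.989). Rfx5, a subunit of the factor that binds the X box, had one of -0.18 (SE 0.0824, edgeR adjusted p = 0.989).

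Transcripts of a list of receptors of class I and class I-like molecules and of related immune receptors were scarce. Not all of these receptors are known to bind the products of the members. Of 11 such genes in the table, 3 passed the filter and 5 had no count in any library, among them Klrc1, which encodes NKG2A, and Klrk1, which encodes NKG2D. Klrd1, which encodes CD94, had 1 count in anti-B and 0 in the others, and so had Trdc, the constant region of the delta chain. Lilrb4a, an inhibitory receptor of myeloid cells, had 13 counts in NC-A, 7 in anti-A, 7 in NC-B and 166 in anti-B (log2 fold change 2.96, SE 1.23, edgeR adjusted p = 0.989). Pirb, which binds class I molecules on myeloid cells and neurons, had 5 counts in NC-A, 4 in anti-A, 1 in NC-B and 49 in anti-B. Cd8a and Cd160 had log2 fold changes of 0.29 (SE 0.249) and -0.26 (SE 0.349). The myeloid receptors Lilrb4a and Pirb thus stood out in a single library, anti-B.

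**Figure D4:**
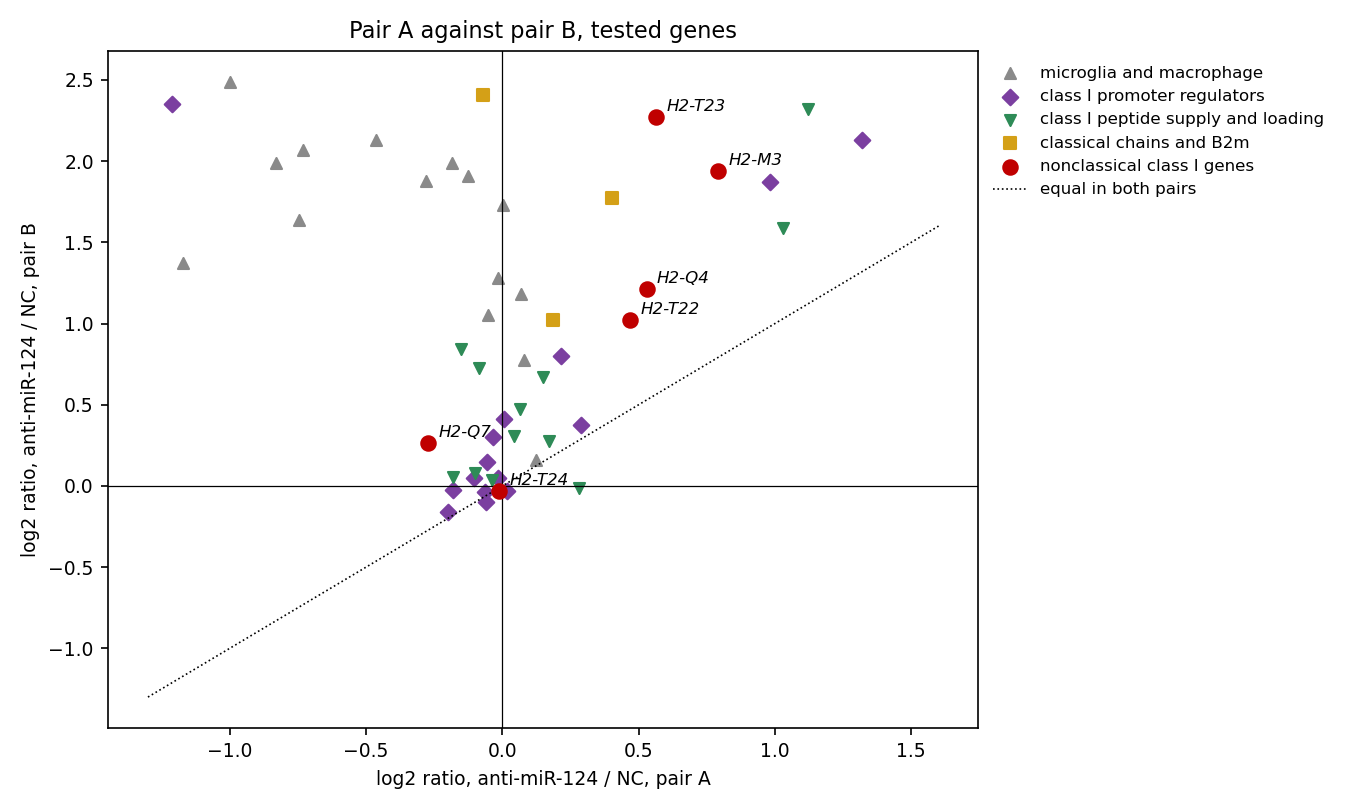
log2 ratio of the anti-miR-124 to the NC library in pair A (x axis) against that in pair B (y axis), on TMM-normalized counts, for the tested genes of the nonclassical group (red circles, named), the classical chains and B2m, peptide supply and loading, promoter regulators, and microglia and macrophage markers, with a dotted line where the pairs are equal. H2-T23, H2-M3, H2-Q4 and H2-T22 lie above 0 on both axes, and most microglia markers lie above 0 in pair B and near or under 0 in pair A.

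Markers of microglia and macrophages and of reactive gliosis were higher in anti-B than in NC-B. In bulk tissue, more cells of a type and more RNA per cell cannot be told apart. The 15 microglia and macrophage markers were all tested, with a median log2 ratio of -0.18 in pair A (range -1.17 to 0.12) and of 1.73 in pair B (range 0.16 to 2.49). Their summed TPM was 247 in NC-A, 236 in anti-A, 196 in NC-B and 581 in anti-B. Lyz2, a myeloid gene, had 226 counts in NC-A, 136 in anti-A, 140 in NC-B and 2646 in anti-B, and Ccr2, a chemokine receptor of monocytes, had 0 counts in NC-A, 0 in anti-A, 2 in NC-B and 25 in anti-B. Of the other monocyte and neutrophil genes, S100a8 had 1, 0, 2 and 4 counts and S100a9 3, 5, 3 and 1 in the same order, and Ly6c2 and Ms4a3 were at 0 in every library. For the 9 tested genes of reactive gliosis, the median log2 ratio was -0.41 (pair A) and 2.01 (pair B). Their list summed to 702 TPM in NC-A, 518 in anti-A, 499 in NC-B and 1050 in anti-B. The part of these cells in the values of pair B was not tested.

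Other markers bore on single libraries. The 11 T and NK cell genes together had 3 counts in NC-A, 0 in anti-A, 4 in NC-B and 5 in anti-B, and Cd3e, Cd3d, Ncr1, Gzma and Prf1 were at 0 throughout. With the 21 lens genes left out before normalization, 0 members were called, as with them. The 6 pigment epithelium genes summed to 30.7 TPM in NC-A, 79.6 in anti-A, 54.6 in NC-B and 53.9 in anti-B, and in pair A the log2 ratios of the 5 tested ran from -0.08 to 1.92, with a median of 0.92. Their part in the values of pair A was not tested. The 8 endothelial genes had a median log2 fold change of -0.06. The 12 retina markers all passed the filter, with a median log2 fold change of -0.02.

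The genes whose pattern over the 4 libraries was nearest to that of the summed counts of the 8 members were Ntn3, Pdpn, C1qtnf1, Ripk1 and Ly6e, by the Euclidean distance between centred log2 CPM values, which was between 0.0417 and 0.0565 over 12274 genes ranked. The centred values of the sum were -0.154 in NC-A, 0.0106 in anti-A, -0.218 in NC-B and 0.362 in anti-B. The members and the genes of the other lists were left out of the ranking. Ntn3, the nearest, had 88 counts in NC-A, 106 in anti-A, 98 in NC-B and 148 in anti-B. In the same order, Pdpn had 688, 810, 748 and 1121 counts and C1qtnf1 87, 100, 92 and 147. Ripk1, a kinase of cell death and inflammatory signaling, had 173 counts in NC-A, 203 in anti-A, 185 in NC-B and 276 in anti-B. Ly6e, a membrane protein induced by interferon, had 472 counts in NC-A, 562 in anti-A, 525 in NC-B and 776 in anti-B. Only 4 values define each pattern, the libraries share depth and tissue, and H2-T24 weighs heavily in the sum.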

How the data were processed

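For 2 libraries per group, the authors deposited raw read counts of each gene together with its length and position. A further 4 columns, holding RPKM values, were left aside. A directional kit was used to make the libraries. The submitters' processing notes name HISAT2 and mm9, whereas 99.8% of 36837 symbols overlapped RefSeq's GRCm38 position. The counting tool, the annotation and the use of strand are not given in the sources used here. The study's methods speak of mixed retinas from several litters, and in different places of 1 and of 2 biological replicates, so p-values measure only the spread between these libraries, which may be technical. Libraries of a group were not duplicates (chi-square per degree of freedom 24.5 in the NC and 9.2 in the anti-miR-124 group). The NC value includes the 21 lens genes, with 328506 counts in NC-A and 709 in NC-B, and was not computed without them. Columns were assigned by the eye they name.

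TPM values were computed from counts and lengths. Groups were compared with edgeR 4.0.16 (R 4.3.3), using TMM scaling, filterByExpr and a 2-sided quasi-likelihood test at an adjusted p of 0.05, checked on simulated counts, with DESeq2 1.42.0 as an alternative. Counting intervals of 95% are exact conditional binomial intervals. Other alternatives were scalings, filters, blocks, summed relatives and leaving out libraries. All members are named, and of other lists fixed genes and up to 4 further ones with the smallest p. The members and lists were chosen with earlier results of these data known. Promoters came from RefSeq (GRCm38.p6) and shared stretches from GENCODE M21. The sequence of miR-124-3p was not used here. The values of 1 regulator are not reported here.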

Additional observations from a re-analysis of the deposited data

How the results depend on the processing

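No member had an adjusted p under 0.05 in the reported edgeR test, and neither had any of the 17766 genes. Unadjusted, 3 of the 6 members tested were under 0.05, as were 694 of all 17766 genes. DESeq2 size factors, upper quartile or total-count scaling, a mean of at least 10 counts (where H2-M3 was not tested), summed relatives and removal of the lens genes left 0 members and 0 genes called. Without the filter, 379 of 31982 genes and 1 of 8 members (H2-T23) were called. DESeq2 called 34 of the 21135 genes with an adjusted p, and 0 members. Leaving out each library in turn gave between 0 and 256 genes and between 0 and 1 members called, the latter H2-T23 without anti-A. The number of genes called was 0 without NC-A, 256 without anti-A, 57 without NC-B and 12 without anti-B. The lone library left in a group was then assumed to vary like the other group. Leaving out a library moved H2-Q7 between -0.162 and 0.154 and H2-T24 between -0.0478 and 0.00525. H2-Q7 turned to -0.103 without NC-B and to -0.162 without anti-B, and H2-T24 to 0.00525 without NC-B. With 0.1 or 1 TPM added, the mean log2 TPM ratio of H2-T24 was 0.0303 or 0.0288, and that of H2-M3 was 0.653 with 1 TPM added, against a fitted 1.25. The causes were not tested.

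Whether left-eye and right-eye libraries of 1 replicate number come from the same mice is not stated in the sources used here, and their deviations from the group mean correlated at -0.168 within a number, across 17766 genes. The reported fit left the pairing out. With the replicate block 0 genes and 0 members were called, 376 genes had an unadjusted p under 0.05, and H2-T23 had a log2 fold change of 1.42. With the crossed block, chosen after seeing the data, 160 genes and 1 member (H2-T23) were called, and H2-Q7 was at -0.00212.

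Depth limits H2-T10, H2-Q6 and H2-M3, which had 3 to 13 counts at most in a library. Only 2 libraries per group were measured.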
